A study of Mus musculus with 12 samples.

Results

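The genes described here are 8 Toll-like receptors (Tlr1, Tlr2, Tlr4, Tlr6, Tlr7, Tlr8, Tlr9 and Tlr13), the co-receptor gene Cd14 and the adaptor gene Myd88. They are the 10 rows, of 24454 genes in the deposited table, whose gene symbol is one of these names. The rows were matched by name, and the names were chosen with earlier results of these data known. All 10 were in the table, and all 10 were among the 11476 genes that passed the filter on low values, a mean of at least 10 normalized counts over the 12 libraries. The RNA came from leukemic blasts, which were fetal liver cells transformed with a retrovirus carrying the fusion oncogene MLL-AF9 and the fluorophore Venus. Cells of wildtype embryos (WT) or of embryos lacking the STAT3β isoform (Δβ) were injected into the tail vein of recipients of the strain NOD.Cg-Prkdc scid Il2rg tm1Wjl/SzJ, immunocompromised males aged 6 to 8 weeks, and Venus+ blasts were later sorted from spleen (SP) and bone marrow (BM) of diseased animals. All 4 groups, WT SP, Δβ SP, WT BM and Δβ BM, thus carried the same oncogene, the Δβ deletion was in the blasts and not in the recipient, and each group had 3 libraries. Whether the 3 came from separate recipients is not stated in the labels, so the p-values below measure the spread between these libraries, which may be partly technical. These recipients lack lymphocytes and natural killer cells but keep their own myeloid cells, which the Venus sort was meant to leave out.

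Toll-like receptors are germline-encoded sensors of microbial molecules on macrophages, neutrophils, monocytes and dendritic cells. Tlr2, with Tlr1 or Tlr6 as partner, binds bacterial lipopeptides at the cell surface, and Tlr4 binds lipopolysaccharide, which CD14 hands over to it. Tlr7, Tlr8 and Tlr13 bind RNA and Tlr9 binds unmethylated CpG DNA inside endosomes. Myd88 is the adaptor that all of these receptors use to reach the IRAK kinases, TRAF6 and NF-κB, and in myeloid cells the expression of several of them rises with maturation.

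Expression was given as normalized counts, the reads counted on a gene divided by 1 size factor per library. The libraries held 9001051 to 13859727 reads on genes, 1 read was worth 0.775 to 1.17 normalized counts, and the members had between 35 and 4526 reads in a library. The 12 libraries were labelled as blasts, and all 10 markers of leukocytes, myeloid progenitors and MLL-AF9 targets (Ptprc, Itgam, Kit, Mpo, Hoxa9, Hoxa10, Meis1, Myb, Cebpa and Spi1) had at least 3 reads in every library. Of these, Kit, Hoxa9, Hoxa10, Meis1 and Myb, 5 genes of immature cells, were lowest of the 12 libraries in WT SP replicate 1 (Hoxa10 at 88.9 there and at 344 to 1222 elsewhere), whereas Ptprc, Itgam and Spi1 were highest in WT SP replicates 1 and 2. Stat3 lay between 2349 and 4429.8 normalized counts over the libraries, and since the values are per gene they do not show which isoform was present and do not check the deletion.

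The 3 WT SP libraries were not alike. Replicates 1 and 2 were the 2 highest of all 12 libraries for 6 of the 10 members (Tlr2, Tlr7, Tlr8, Tlr13, Cd14 and Myd88), a pattern that 16.5% of all tested genes had. Replicate 3 was the lowest of the 3 WT SP libraries for 9 of the 10 members, all but Tlr4, and the lowest of all 12 for 4 of them. In Δβ BM, replicate 1 was the highest of the 3 libraries for all 10 members and replicate 3 the lowest for 9, all but Cd14. The members' contrasts with WT SP are therefore given with all 12 libraries and with the 11 that remain without WT SP replicate 3. That leaves 2 libraries in the group, and this fit was singled out after the members' values were seen. Leaving out a WT SP library that is low for most members by itself moves these contrasts towards higher in WT SP. The calls of that fit are thus no independent evidence of a difference. The share of reads on Rn45s, the ribosomal RNA precursor, was 0.725%, 2.48% and 2.41% in WT SP replicates 1, 2 and 3 and 0.178% to 0.655% elsewhere. Its part in the differences between these libraries was not tested.

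Markers of mature and immature myeloid cells also differed between the WT SP libraries. The summed level of 10 mature neutrophil markers in WT SP was 116752, 173828 and 67383 normalized counts for replicates 1, 2 and 3, against 48218 to 65226 in Δβ SP. In BM it was 88552 to 219443 (WT) and 76278 to 116566 (Δβ), and all 10 markers had 3 reads or more in every library. The sum was highest in WT BM replicate 3, a library in which the members were not high. WT SP replicates 1 and 2 were the 2 highest of the 12 libraries for 2 of the 10 markers. Camp was at 14235, 30075 and 22751 in WT SP, with replicate 1 the lowest. Replicate 3 was instead the lowest of WT SP for Ltf (10805, 16961.5 and 2345), Ngp (66490, 88743 and 34544) and Mmp8 (3066, 2223.5 and 329). Camp, Ltf, Ngp and Mmp8 were each highest of the 12 libraries in a WT BM library. Mpo, a granule enzyme of immature myeloid cells, went 5947, 5256 and 40587 over the same 3 libraries, 14555, 8288 and 5172 in WT BM and 24214 to 53209.5 in Δβ, so that WT BM was low too, and Itgam, which encodes CD11b of mature myeloid cells, was at 26293, 21981 and 10941.

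The summed level of tissue macrophage markers came mostly from Vcam1 and Slc40a1, so it does not show what the rarer markers did. Several of the rarer markers were highest in a WT SP library. Of 12 such markers 11 had 3 reads in some library, but their sum was 1736 to 2419 normalized counts in WT SP and higher, 4341 to 6757, in WT BM, mostly through Vcam1 and Slc40a1. The sum in Δβ was 1474 to 2986 (SP) and 2265 to 3180.1 (BM). The scavenger receptor gene Marco, at 14.8, 21.2 and 12.2 in WT SP, did not exceed 2.34 elsewhere. The receptor kinase gene Axl had 88.9, 29.7 and 5.07 in WT SP and 64.5 in WT BM replicate 1. The complement genes C1qa and C1qb, which define tissue macrophages, reached 14.8 and 30.8 in WT SP replicate 1 and were at or under 4.27 in the other 11 libraries. Dendritic cell markers summed in SP to 233 to 707 (WT) and 291 to 762 (Δβ), and in BM to 374 to 1039 (WT) and 378 to 864 (Δβ). The 4 hemoglobin genes were listed at 0 in every library, and the 8 erythroid markers together stayed at or under 17.3. Markers of B, T and natural killer cells summed to 238 to 659 over the libraries, and those of platelets to 72.4 to 320.1 apart from 1537 in WT SP replicate 1, of which 1452 was Vwf. In bulk RNA, fewer cells of a type and less RNA per cell cannot be told apart, and the part of these markers in the members' levels was not tested.

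**Figure D1:**
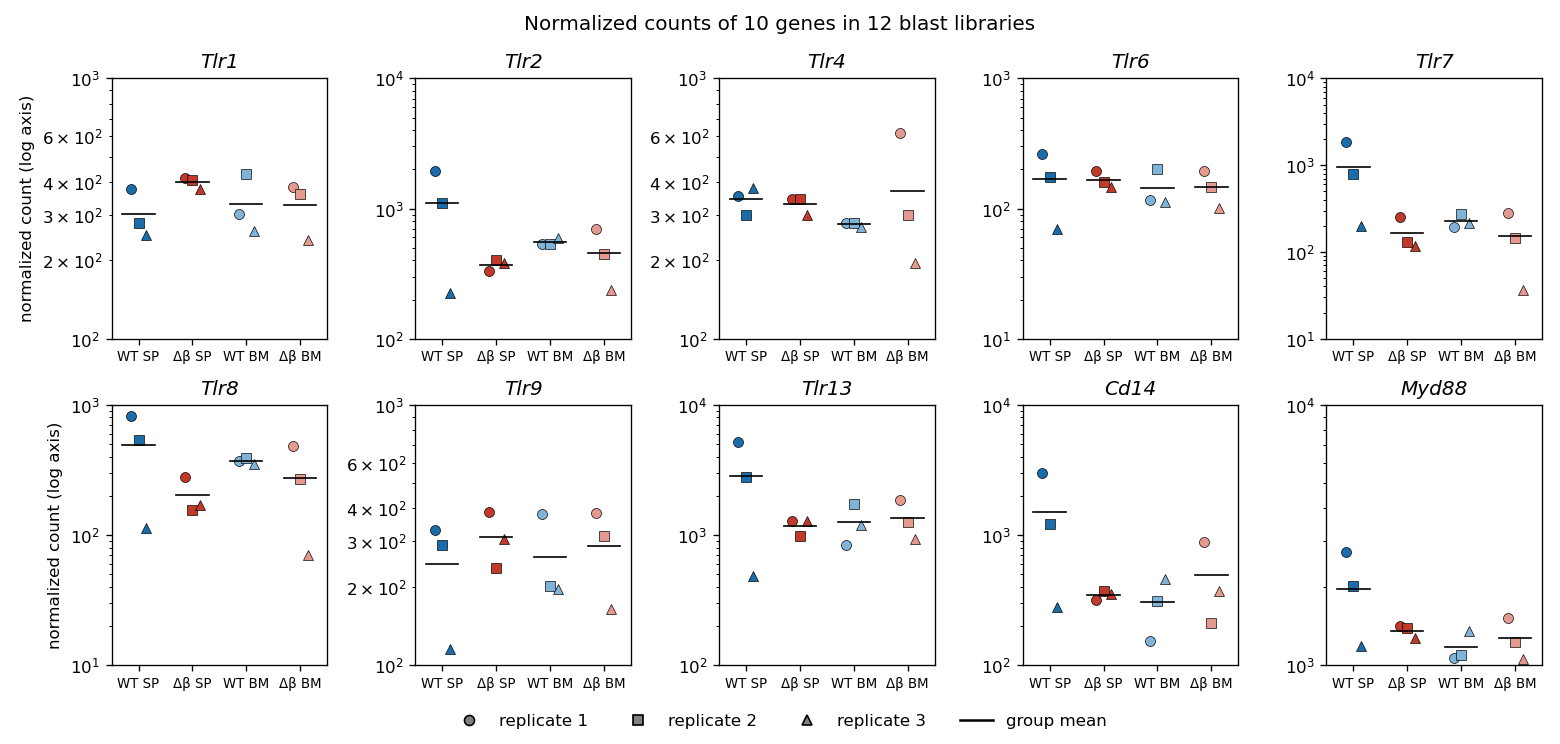
Normalized counts (log axis) of the 10 genes in each of the 12 libraries, with 1 point per library, marker shape for the replicate number and a line for the group mean. WT SP replicates 1 and 2 lie above all other libraries for Tlr2, Tlr7, Tlr8, Tlr13, Cd14 and Myd88, and WT SP replicate 3 lies near or below the other groups.

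Among the receptors of the cell surface, Tlr2 differed most between libraries. Its normalized counts in WT SP were 1958, 1101 and 226 (replicates 1, 2 and 3, the order used throughout) against 329, 403 and 381 in Δβ SP. In BM it had 534, 536 and 595 in WT and 691, 449.7 and 237 in Δβ. WT SP replicates 1 and 2 thus exceeded every other library, replicate 3 lay under every other library, and the groups overlapped in both organs. Tlr2 (RefSeq NM_011905, Entrez gene 24088) is found at chr3:83836272-83841767 (minus strand) in GRCm38.

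Tlr1, a partner of Tlr2, was flat. Normalized counts were 377, 278 and 249.6 in WT SP, 416, 408 and 377 in Δβ SP, 301, 428 and 259 in WT BM and 382, 361 and 239 in Δβ BM. The 12 values lay within 1.79-fold of each other. Tlr6, the other partner of Tlr2, had 262, 174 and 70.0 in WT SP, 196, 159 and 145 in Δβ SP, 116, 202 and 112 in WT BM and 195, 147 and 100.5 in Δβ BM. Of the 12 libraries, WT SP replicate 1 was the highest and WT SP replicate 3 the lowest.

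Tlr1 (NM_030682, Entrez gene 21897, chr5:64924679-64933563) and Tlr6 (NM_011604, Entrez gene 21899, chr5:64952031-64960097) are neighbours on the minus strand of GRCm38 and near-identical in part of their coding sequence. Of all stretches of 50 bases in the longest transcript, 15.3% of those of Tlr1 and 12.6% of those of Tlr6 also occur in another gene, while the other 8 members share none. The longest identical run, of 229 bases, is shown because reads that fall within it could not be assigned to one of the pair by sequence alone, so that the counts of both are less certain than those of the other receptors. It lies within 1 coding exon of each gene, at chr5:64925537-64925765 in Tlr1 and chr5:64953828-64954056 in Tlr6, both on the minus strand:
Tlr1 and Tlr6 identical run: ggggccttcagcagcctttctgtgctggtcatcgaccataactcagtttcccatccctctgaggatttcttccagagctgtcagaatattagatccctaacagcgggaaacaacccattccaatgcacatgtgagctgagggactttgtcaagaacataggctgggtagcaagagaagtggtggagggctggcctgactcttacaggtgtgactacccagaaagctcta

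Tlr4, the lipopolysaccharide receptor, was the flattest member within WT BM and the only one whose groups were apart in 1 of the 4 pairs of groups compared, while the other 9 members overlapped in all 4. Normalized counts were 353, 298 and 379.5 in WT SP and 279, 277 and 269 in WT BM. Every WT SP library thus lay above every WT BM library, as was so for 5.66% of tested genes, by a log2 fold change of 0.31 (standard error, SE, 0.32, adjusted p = 0.774 from limma). In Δβ it had 346, 343 and 300.0 in SP and 616, 299 and 196 in BM, where replicate 1 was the highest and replicate 3 the lowest of all 12 libraries. Tlr4 (NM_021297, Entrez gene 21898) is found at chr4:66827584-66930284 (plus strand).

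Of the endosomal receptors, Tlr7, a sensor of single-stranded RNA, spanned the widest range of all members. Normalized counts were 1854, 791 and 198 in WT SP and 251, 129 and 119 in Δβ SP. In BM it had 193, 273 and 218 in WT and 284, 144 and 36.3 in Δβ. The highest library, WT SP replicate 1, was 51.1-fold above the lowest, Δβ BM replicate 3, and WT SP replicate 3 lay within the range of the Δβ SP and WT BM libraries. Tlr7 (NM_133211, Entrez gene 170743) is found at chrX:167304929-167330558 (minus strand).

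Tlr8 (NM_133212, Entrez gene 170744, chrX:167242696-167264329, minus strand) is the neighbour and close relative of Tlr7. Normalized counts were 826, 537 and 114 in WT SP, 277, 157 and 169.7 in Δβ SP, 367, 391 and 349 in WT BM and 481, 269 and 70.4 in Δβ BM. WT BM was tight, and the lowest values were those of Δβ BM replicate 3 and WT SP replicate 3. Tlr13 (NM_205820, Entrez gene 279572, chrX:106143204-106160493, plus strand), which in mice senses bacterial ribosomal RNA, had 5158, 2795 and 487 in WT SP and 1276, 973 and 1284 in Δβ SP. In BM it had 834, 1722 and 1189 in WT and 1871, 1265 and 932 in Δβ. For Tlr13 too, WT SP replicates 1 and 2 were the highest of the 12 libraries and replicate 3 the lowest.

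Tlr9 (NM_031178, Entrez gene 81897, chr9:106222598-106226883, plus strand), the CpG DNA receptor, did not share this pattern. Normalized counts were 330.5, 289 and 116 in WT SP, 387, 236 and 305 in Δβ SP, 380.0, 202 and 196 in WT BM and 384, 314 and 165 in Δβ BM. Replicate 1 of each group was the highest of its 3 libraries, and WT SP replicate 3 was the lowest of the 12.

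Cd14, which encodes the lipopolysaccharide co-receptor of monocytes and macrophages, had 3003, 1219 and 282 normalized counts in WT SP and 314, 369 and 354 in Δβ SP. In BM it had 154, 311 and 458 in WT and 885, 211 and 374 in Δβ. The Δβ SP libraries were close to each other and lay between WT SP replicates 3 and 2, while the lowest value of all was in WT BM replicate 1. The gene (NM_009841, Entrez gene 12475) is found at chr18:36725067-36726798 (minus strand) and has a single merged exon.

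Myd88, the shared adaptor, varied over a narrower range. Normalized counts were 2717, 2005 and 1183 in WT SP and 1415, 1385 and 1267 in Δβ SP. In BM it had 1062, 1096 and 1349 in WT and 1521, 1230.0 and 1055 in Δβ. The highest library was 2.57-fold above the lowest, against 19.5-fold for Cd14. Myd88 (NM_010851, Entrez gene 17874) is found at chr9:119335934-119341411 (minus strand) and shares 290 exonic bases with Acaa1a on the other strand. Whether the reads were counted by strand is not given in the sources used here, so reads in that stretch could belong to either gene.

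**Figure D2:**
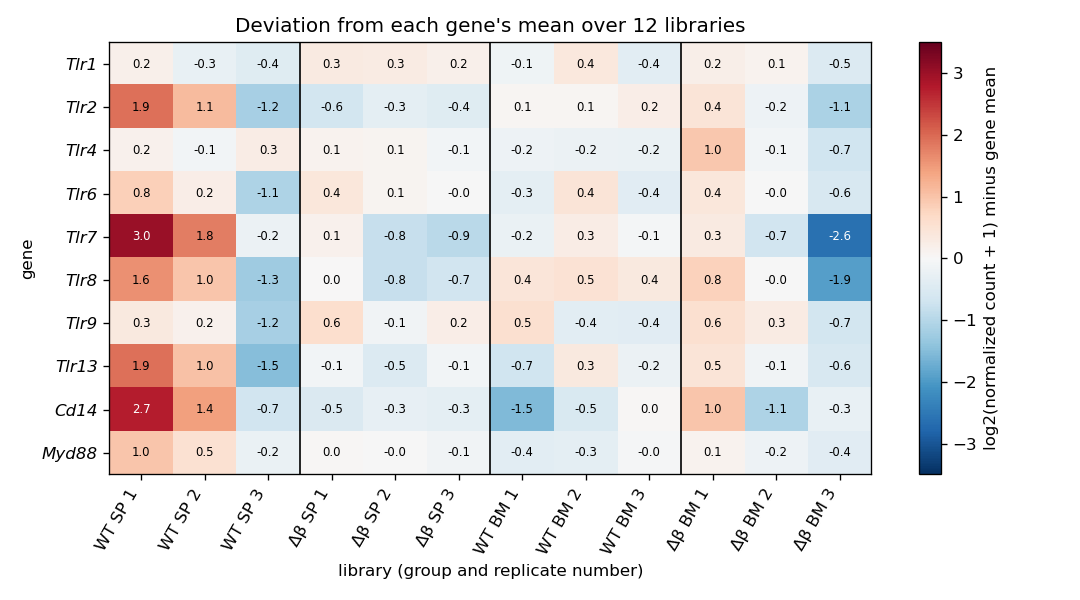
Deviation of log2(normalized count + 1) from each gene's mean over the 12 libraries, with genes in rows and libraries in columns, and red above and blue below that mean. In WT SP replicate 1 the deviation is 3.02 for Tlr7 and 2.74 for Cd14, and in Δβ BM replicate 3 it is -2.62 for Tlr7.

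Across the 12 libraries, Pearson's r of log2(normalized count + 1) ranged from 0.57 to 0.92 over the 15 pairs of the 6 members that peaked in WT SP replicates 1 and 2, with a median of 0.84. Tlr4 had an r of 0.19 to 0.42 with the other 9 members, and Tlr1 one of 0.07 to 0.38 with those 6. For Tlr6 the r with the same 6 went from 0.58 (Cd14) to 0.85 (Tlr13). The genes of the whole table most like a member were S100a4, Slc2a6 and Ptprj for Tlr7 (r of 0.97, 0.97 and 0.96), Nr4a1 and Ccnl1 for Cd14 (r of 0.95 and 0.95), and Pip4k2a, Gsap and Ptprc for Myd88 (r of 0.97, 0.97 and 0.97). For Tlr2 they were Fam129a, Il13ra1 and Tbc1d14 (r of 0.97, 0.97 and 0.97), for Tlr13 Tmem71, Ugt1a7c and Birc3 (r of 0.98, 0.98 and 0.97) and for Tlr8 Lyz2, Trps1 and Nufip2 (r of 0.95, 0.95 and 0.95). Those of Tlr9 were Clec7a, Cfp and Primpol (r of 0.93, 0.92 and 0.92), those of Tlr6 Rab19, Tmem243 and Tnfaip1 (r of 0.95, 0.92 and 0.91), those of Tlr4 Mettl23, Dynlt3 and Ndufs4 (r of 0.91, 0.90 and 0.88), and those of Tlr1 Pkib, Zfos1 and Guca1a (r of 0.90, 0.88 and 0.87). These correlations are descriptions over libraries that share size factors and the same outlying WT SP pair.

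Of the 6 members that peaked together, 4 had a promoter in the RefSeq table for GRCm38.p6, and their sequences are shown so that the letters before and around the start can be compared. Each is 300 bases long, 5′ to 3′ on the strand of the gene, and base 251 is the annotated start. Capitals mark matches on either strand to 5 motifs, which are the STAT element TTCNNNGAA (in 8.30% of all 32851 promoters of this length), the interferon-stimulated response element GAAA, any 2 bases, GAAA (3.44%), the PU.1 core GAGGAA (28.3%), the AP-1 element TGANTCA (7.81%) and the NF-κB motif (4.51%). The windows are chr3:83841559-83841858 (minus) for Tlr2, chrX:167264280-167264579 (minus) for Tlr8, chrX:106143025-106143324 (plus) for Tlr13 and chr9:119339969-119340268 (minus) for Myd88:
Tlr2 promoter: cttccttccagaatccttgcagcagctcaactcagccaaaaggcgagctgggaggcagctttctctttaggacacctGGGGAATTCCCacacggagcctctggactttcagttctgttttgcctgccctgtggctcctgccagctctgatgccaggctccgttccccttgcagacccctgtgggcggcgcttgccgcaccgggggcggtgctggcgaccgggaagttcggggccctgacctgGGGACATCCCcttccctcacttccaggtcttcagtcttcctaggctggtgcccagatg
Tlr8 promoter: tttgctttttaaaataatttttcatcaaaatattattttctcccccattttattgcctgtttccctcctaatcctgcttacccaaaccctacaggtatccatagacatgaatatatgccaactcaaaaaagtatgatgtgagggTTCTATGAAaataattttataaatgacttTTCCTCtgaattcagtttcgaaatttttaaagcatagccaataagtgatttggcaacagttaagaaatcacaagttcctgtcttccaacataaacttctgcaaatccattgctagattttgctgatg
Tlr13 promoter: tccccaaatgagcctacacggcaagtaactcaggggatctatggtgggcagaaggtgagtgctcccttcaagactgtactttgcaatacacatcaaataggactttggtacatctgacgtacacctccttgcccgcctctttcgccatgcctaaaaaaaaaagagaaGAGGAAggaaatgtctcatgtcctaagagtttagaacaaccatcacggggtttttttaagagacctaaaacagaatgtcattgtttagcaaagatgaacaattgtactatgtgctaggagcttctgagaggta
Myd88 promoter: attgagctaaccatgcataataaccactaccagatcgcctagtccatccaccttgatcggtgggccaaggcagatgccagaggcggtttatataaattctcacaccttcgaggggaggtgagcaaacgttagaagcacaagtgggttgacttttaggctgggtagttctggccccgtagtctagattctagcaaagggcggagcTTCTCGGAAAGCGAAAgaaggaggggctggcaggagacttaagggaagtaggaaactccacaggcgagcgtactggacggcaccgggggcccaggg

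The Tlr2 window held NF-κB matches at bases 78 to 88, where 2 matches overlap, and 243 to 252, and the Myd88 window a STAT match at bases 205 to 213 that overlaps an interferon-stimulated response element at bases 211 to 220. The Tlr8 window had a STAT match at bases 145 to 153 and a PU.1 match at bases 174 to 179, and the Tlr13 window a PU.1 match at bases 168 to 173. No motif was common to the 4 windows. Among the members without the WT SP peak, Tlr9 had 2 PU.1 matches and 1 AP-1 match, Tlr1 a PU.1 match in one promoter and a STAT match in the other, and Tlr6 interferon-stimulated response elements in one and STAT matches in the other. A match is only a string of letters, and binding was not measured.

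Blasts lacking STAT3β were compared with WT blasts in SP to ask whether these receptors differ by genotype there. On average 7 of the 10 members were lower in Δβ than in WT SP and 3 (Tlr1, Tlr6 and Tlr9) were higher. The members' median log2 fold change was -0.59 against -0.01 over all tested genes. The largest values were those of Tlr7, at -2.07 (SE 0.81, adjusted p = 0.290 from limma), and Cd14, at -1.55 (SE 0.76, adjusted p = 0.365 from limma). Tlr2 had a log2 fold change of -1.09, Tlr8 of -0.92, Tlr13 of -0.71 and Myd88 of -0.46. Tlr1, Tlr9 and Tlr6 were at 0.43, 0.44 and 0.17, and Tlr4 at -0.06.

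None of these differences passed the test with all 12 libraries. Limma with Benjamini-Hochberg adjustment over all tested genes called 0 of the 10 members at an adjusted p under 0.05, where it called 0.105% of all tested genes, and the members' adjusted p ranged from 0.290 to 0.944. At an unadjusted p under 0.05 there was 1 member, Tlr7, beside 14.9% of all tested genes. edgeR on the recovered reads called 0 members and DESeq2 called 2, Tlr7 (log2 fold change -2.49, adjusted p = 0.0201 from DESeq2) and Cd14 (-2.09, adjusted p = 0.0481 from DESeq2), both lower, where it called 2.74% of all genes lower. WT and Δβ SP values overlapped for all 10 members, for the 6 named above only through WT SP replicate 3, where 17.3% of all tested genes did not overlap.

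When WT SP replicate 3 was left out, a choice made from the members' own values, limma called 5 of the 10 members, all lower in Δβ SP. They were Tlr7 (log2 fold change -2.94, SE 0.71, adjusted p = 0.0246), Cd14 (-2.47, 0.60, 0.0248), Tlr2 (-1.99, 0.37, 0.0132), Tlr13 (-1.70, 0.36, 0.0177) and Myd88 (-0.79, 0.18, 0.0209), with the values from limma in the same order. The same fit called 16.4% of all tested genes, 11.7% as lower in Δβ SP. Tlr8 was at -1.77 with an adjusted p of 0.0752 from limma, and the other 4 were uncalled, with Tlr6 at -0.37, Tlr9 at -0.03 and Tlr4 at 0.02, each with a changed sign, and Tlr1 at 0.30. Leaving out WT SP replicate 1 instead, limma called 0 members and their median was -0.11, with 4 higher and 6 lower. Itgam, Ptprc and Spi1 were likewise highest in WT SP replicates 1 and 2, and 5 markers of immature cells were lowest in replicate 1. The neutrophil marker sum was 116752, 173828 and 67383 in WT SP, each above the 48218 to 65226 of Δβ SP. The part of these markers in the differences was not tested.

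In BM the genotypes were closer. The median log2 fold change of the members was 0.08, with 6 higher and 4 lower in Δβ BM (7 and 3 with trimmed-mean (TMM) or quantile scaling, where Tlr1, at -0.01, changes sign). Tlr7 and Tlr8 were lower on average, at -0.97 (SE 0.81) and -0.82 (SE 0.74), and Cd14 was higher, at 0.56 (SE 0.76). The first 2 rested on Δβ BM replicate 3, since without it they were at -0.16 and -0.04, and 8 members were higher and 2 lower. Without Δβ BM replicate 1, Cd14 was at 0.01, and 1 member was higher and 9 lower. Limma called 0 of the 10 members, where it called 0.0697% of all tested genes, and 0 were at an unadjusted p under 0.05, beside 2.59% of all tested genes. edgeR and DESeq2 also called 0, and all 10 members overlapped between WT and Δβ BM, where 7.63% of all tested genes did not.

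The difference between the genotype effects in SP and BM was tested as an interaction. It was largest for Cd14, where the genotype's log2 fold change in SP minus that in BM was -2.11 (SE 1.08, adjusted p = 0.926 from limma), and for Tlr7 it was -1.10 (SE 1.15). Limma called 0 of the 10 members and 0% of all tested genes, and at an unadjusted p under 0.05 there were 0 members beside 3.2% of all tested genes. edgeR and DESeq2 called 0 members. Each had 1 member at an unadjusted p under 0.05, Cd14, beside 431 (edgeR) and 555 (DESeq2) of the 11476 tested genes. In the 11 libraries without WT SP replicate 3, limma and edgeR again called 0 members, while DESeq2 called 4, beside 4.19% of all genes, an alternative chosen after seeing the data.

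Within WT blasts, SP was compared with BM to describe the organ of residence. On average 8 of the 10 members were higher in SP (7 with trimmed-mean or quantile scaling, where Tlr8, at 0.00, changes sign), with a median log2 fold change of 0.41 against 0.00 over all tested genes. Cd14 was at 1.85 (SE 0.76, adjusted p = 0.599 from limma), Tlr7 at 1.55 (SE 0.81) and Myd88 at 0.68 (SE 0.25, adjusted p = 0.597 from limma). Limma called 0 of the 10 members and 0% of all tested genes, and Cd14 and Myd88 were the 2 members at an unadjusted p under 0.05, beside 8.27% of all tested genes. edgeR and DESeq2 also called 0 members. At an unadjusted p under 0.05 they had 3 and 4 members, beside 1112 and 1305 of the 11476 tested genes. The direction rested on WT SP replicate 1, without which 4 members were higher and 6 lower, with a median of -0.09.

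Once WT SP replicate 3 was left out, 3 of the 10 members were called higher in SP than in BM of WT blasts, where 4.23% of all tested genes were. They were Cd14 (log2 fold change 2.77, adjusted p = 0.0335 from limma), Tlr13 (1.67, adjusted p = 0.0339 from limma) and Myd88 (1.01, adjusted p = 0.0260 from limma). This comparison and that of the genotypes in SP share the WT SP libraries, so they are not independent of each other.

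In Δβ blasts the organs did not differ for any member by the test. The median log2 fold change of SP against BM was 0.05, from -0.26 (Cd14) to 0.45 (Tlr7), and 5 members were higher and 5 lower (6 and 4 with TMM scaling, where Tlr4 changes sign). Without Δβ BM replicate 1 all 10 were higher in SP, with a median of 0.43, and without Δβ BM replicate 3, 1 was higher and 9 lower, with a median of -0.35. Limma called 0 of the 10 members and 0% of all tested genes, with 0 members at an unadjusted p under 0.05 beside 1.77% of all tested genes, and edgeR and DESeq2 called 0. All 10 members overlapped, where 7.42% of all tested genes did not. SP and BM libraries of the same Δβ number deviated together, with r of 0.61 to 0.66 over all tested genes, and with the number as a block in the 6 Δβ libraries the count was again 0.

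**Figure D3:**
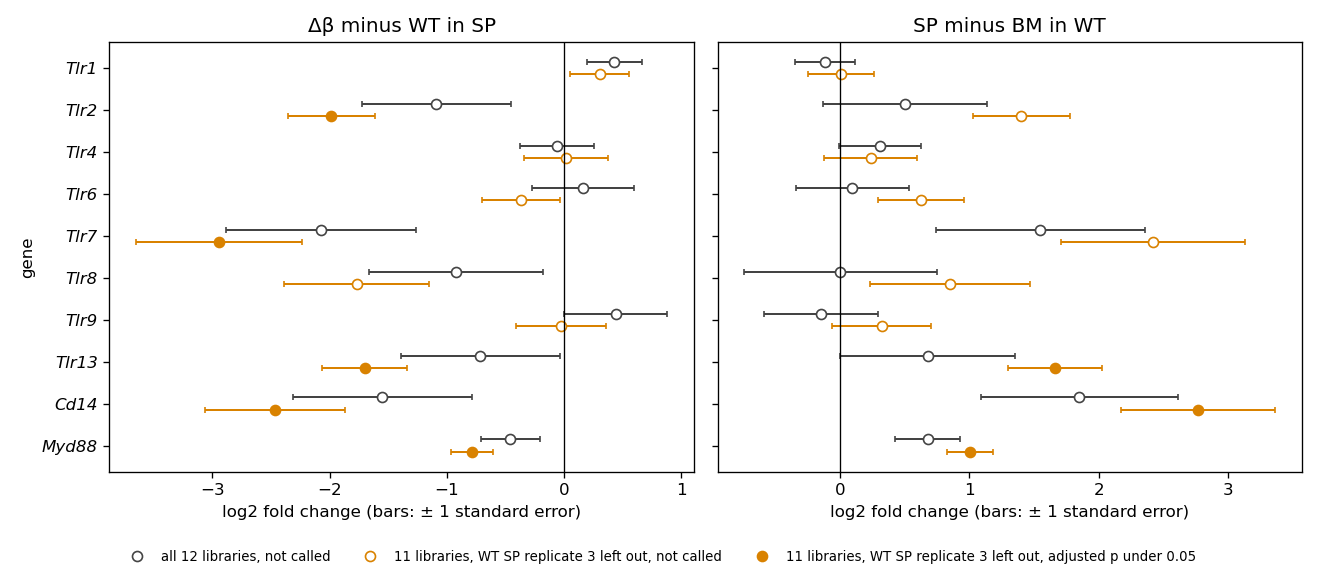
Log2 fold change with 1 standard error of the 10 genes for Δβ minus WT in SP (left) and SP minus BM in WT (right), from limma with all 12 libraries (grey) and with the 11 that remain without WT SP replicate 3 (orange), where filled points have an adjusted p under 0.05. All grey points are open, and 5 orange points on the left and 3 on the right are filled. The library left out was singled out after the values of these genes were seen.

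Levels of different genes were compared as normalized counts per kb of exon. In WT SP the order of the mean levels was Cd14 (867 ± 798, SD, n = 3), Myd88 (764 ± 298) and Tlr13 (654 ± 543), then Tlr2, Tlr7, Tlr8, Tlr1, Tlr9, Tlr4 and Tlr6 (45.3 ± 25.8), and every neighbour in that order overlapped with the next. In Δβ SP, where libraries were closer, Myd88 led (526 ± 30.3), followed by Tlr13 (274 ± 41.1) and Cd14 (199.6 ± 16.4), and these 3 did not overlap with each other or with the rest. Tlr2 (123 ± 12.6) and Tlr1 (119.6 ± 6.19) overlapped, Tlr9 (89.0 ± 21.6) stood below Tlr1 without overlap, and Tlr4, Tlr8, Tlr6 and Tlr7 (40.7 ± 18.1) formed an overlapping tail.

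In BM the order was much the same. In WT BM Myd88 (454 ± 61.0) stood above Tlr13 (290.1 ± 104) without overlap, and each later neighbour overlapped with the next, down to Tlr6 (38.4 ± 13.6). In Δβ BM every neighbour overlapped, from Myd88 (493 ± 91.3) to Tlr7 (37.9 ± 30.4). By rank within a library, Myd88 took places 1 to 3 and Tlr13 places 2 to 3 of the 10 in all 12 libraries, whereas Cd14 took places 1 to 7.

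**Figure D4:**
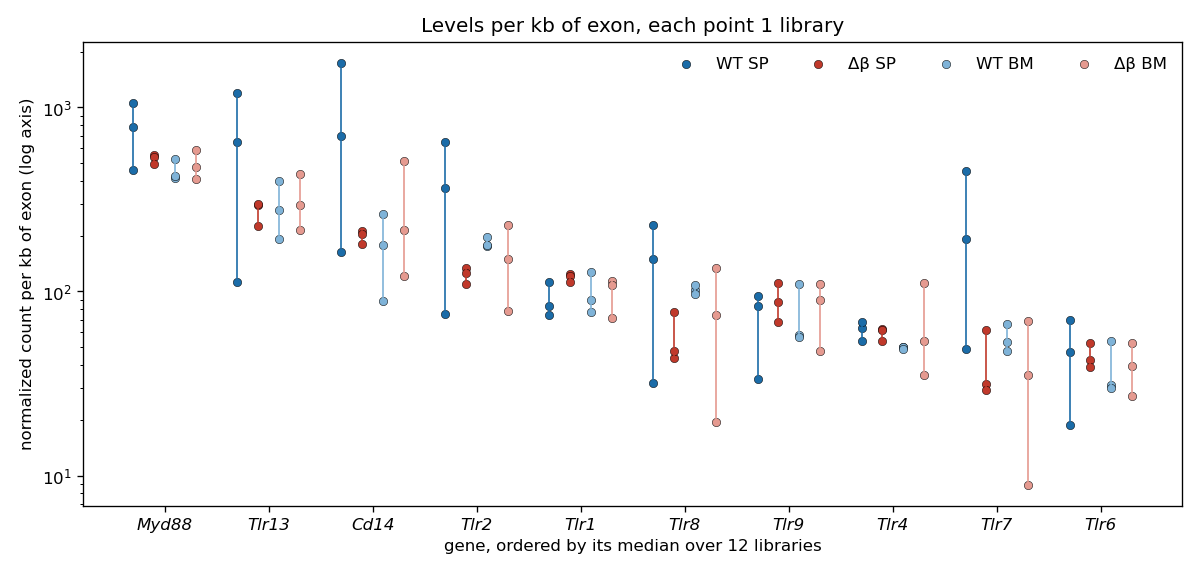
Normalized counts per kb of exon (log axis) of the 10 genes in each library, ordered by the median over 12 libraries, with 1 point per library, a line from the lowest to the highest of each group and a colour for each group. Myd88 and Tlr13 are highest by this median, Tlr6 is lowest, and the widest lines are those of WT SP and, for Tlr7 and Tlr8, of Δβ BM.

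Around the receptors, 6 lists held 87 further genes, of which 73 passed the filter on low values. Among the 73 are 14 innate sensors outside the Toll-like receptor family, and the others belong to the family or its pathway. For Δβ against WT in SP, limma called 1 of the 73, Tnf, which was lower, and 21 were at an unadjusted p under 0.05, beside 0.105% and 14.9% of all tested genes. edgeR called 1 lower and DESeq2 7 lower, beside 0.0174% and 2.74% of all genes. By limma 0 of the 73 were called in each of the other 4 contrasts, where 4 (Δβ against WT in BM), 8 (difference of the genotype effects), 14 (SP against BM in WT) and 4 (SP against BM in Δβ) were at an unadjusted p under 0.05. Of all tested genes, 2.59%, 3.2%, 8.27% and 1.77% were at that p in these contrasts, in the same order. edgeR also called 0 there, and DESeq2 called 5 for SP against BM in WT, all higher in SP, beside 0.786% of all genes, and 0 in the other 3. Leaving out WT SP replicate 3, limma called 20 of the 73 lower and 1 higher in Δβ SP, and 10 higher in SP than in BM of WT blasts, where it called 11.7% of all tested genes lower in Δβ SP and 4.23% higher in SP than in BM.

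The other mouse Toll-like receptor genes were low. Tlr5, the flagellin receptor, had 22.3 to 122 normalized counts over the libraries, both extremes being WT SP libraries, and log2 fold changes of -0.52 in SP and 0.31 in BM for Δβ against WT, neither called by limma; without WT SP replicate 3 it was at -1.26 in SP (adjusted p = 0.117 from limma). Tlr3, Tlr11 and Tlr12 did not exceed 4.35, 7.84 and 4.48 normalized counts in any library and were not tested. Cd36, a scavenger co-receptor of Tlr2, did not exceed 5.70 either.

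Of the 10 co-receptors and trafficking partners 9 were tested, and limma called 0 in each of the 5 contrasts. Ly96, which encodes the MD-2 subunit of the Tlr4 complex, had 84.3, 48.8 and 12.2 normalized counts in WT SP, and WT SP replicates 1 and 2 were its 2 highest libraries. Unc93b1, which carries the endosomal receptors to their compartment, was at 5753, 4305 and 3160.2 in WT SP and 5911, 4183 and 3864 in Δβ SP, with a log2 fold change of 0.10. Hsp90b1, their chaperone, was at 0.47, the Tlr4-like receptor Cd180 at -0.27 and its partner Ly86 at 0.60 (unadjusted p = 0.0425 and adjusted p = 0.324 from limma). Slc15a4, a lysosomal transporter needed for Tlr7 and Tlr9 signalling, was at -0.70 in SP (unadjusted p = 0.0487 and adjusted p = 0.334 from limma), and without WT SP replicate 3 it was the 1 gene of the 9 that limma called, lower in Δβ SP at -1.12 (adjusted p = 0.0132 from limma). That fit called 11.7% of all tested genes lower. In BM, Slc15a4 and Lbp, the lipopolysaccharide-binding protein, lay lower in all Δβ than in all WT libraries, at -0.51 and -0.27. Ap3b1, an endosomal sorting adaptor, lay higher in SP than in BM of WT blasts, at 0.13, and Lbp lower in SP than in BM of Δβ blasts, at -0.31. None of these was called with all 12 libraries.

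All 24 adaptors, kinases and ligases below the receptors were tested. In SP, 18 were lower and 6 higher in Δβ, the median log2 fold change was -0.34, and limma called 0. The values lowest without overlap of the groups were those of Pik3ap1, which links the receptors to PI3 kinase, at -1.04 (SE 0.26, adjusted p = 0.187 from limma), and Irak4, the first kinase after Myd88, at -0.55 (SE 0.16, adjusted p = 0.218 from limma). Irak4 had 1195, 1171 and 966 normalized counts in WT SP and 820.0, 807 and 652 in Δβ SP, so unlike the members it did not overlap even with WT SP replicate 3. The ubiquitin ligase Traf6 was at -0.51, also without overlap, the Myd88 partner Tirap at -0.33, the Tlr3 and Tlr4 adaptor Ticam1 at -0.40, and the transcription factors Irf5 and Irf7 at -0.56 and 0.33.

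In the other contrasts limma called 0 of these genes. In BM, Irak4 was at -0.34 and Tab1, an activator of the kinase TAK1, at 0.34 without overlap, and the median of the list was -0.01. Irf7 was at 0.67 in BM and at 1.22 for SP against BM in WT, larger than its difference in SP but with overlapping groups. In WT blasts, Pik3ap1 lay higher in SP than in BM without overlap, at 0.79, and in Δβ blasts Traf3 and Tab3 lay lower in SP than in BM, at -0.30 and -0.29, none of them called. Without WT SP replicate 3, limma called 10 of the 24 genes lower in Δβ SP, among them Irak4, Traf6, Tirap, Irf5 and Pik3ap1, beside the 11.7% of all tested genes.

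Of 11 inhibitors of the pathway 9 were tested, 8 were lower in Δβ SP, and limma called 0. Tnfaip3, which encodes the deubiquitinase A20, was at -1.24 (SE 0.32, adjusted p = 0.205 from limma), and Irak3, a kinase-dead relative of Irak4, at -0.66 (SE 0.22, adjusted p = 0.241 from limma), both without overlap of the groups. Irak3 had 720.3, 961 and 1139 normalized counts in WT SP, where replicate 3 was the highest, as it was among the members for Tlr4 alone, and 597, 513 and 651 in Δβ SP. In WT blasts Tnfaip3 lay higher in SP (936, 583 and 347 normalized counts) than in BM (325, 242 and 296), and in Δβ blasts Sigirr, a decoy-like receptor of the family, lay lower in SP, at -0.31, neither called. Without WT SP replicate 3, 2 of the 9 inhibitors were called lower in Δβ SP, 1 of them Tnfaip3, again beside 11.7% of all tested genes.

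Of 24 genes that ligands of these receptors induce in myeloid cells 16 were tested. In SP 15 of the 16 were lower in Δβ, with a median log2 fold change of -1.27 against -0.01 over all tested genes, and limma called 1, Tnf. The cytokine gene Tnf had 699.7, 705 and 463 normalized counts in the WT and 106, 173 and 106 in the Δβ replicates of SP. Like the members that peaked together, Tnf was highest of all libraries in WT SP replicates 1 and 2, but in replicate 3 it still exceeded every Δβ SP library. Its log2 fold change was -2.28 (SE 0.29, adjusted p = 0.0353 from limma), and over 19 alternatives it was called in 12, with adjusted p from 9.14e-11 (DESeq2 without WT SP replicate 3, a setting chosen after seeing the data) to 0.172 (limma on the 2 groups alone). Leaving out 1 library at a time, it was called in 2 of 6 fits and not without WT SP replicates 1 or 2 or Δβ SP replicates 1 or 3, with adjusted p up to 0.136.

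Other induced genes had larger differences with more spread. Nfkbiz, which encodes IκBζ, was at -2.30 (SE 0.65, adjusted p = 0.218 from limma) in SP, and the chemokine gene Ccl2 at -2.38 (SE 0.92), both without overlap of the groups. In WT blasts all 16 tested genes were higher in SP than in BM, with a median of 1.46, and limma called 0. The neutrophil attractant Cxcl2 had 2186, 657 and 226 normalized counts in WT SP and 4.96, 5.63 and 193 in WT BM, and the cytokine gene Il1b 1077, 539 and 67.0 and 34.7, 13.5 and 63.4. Their log2 fold changes, 5.13 (SE 1.34) and 3.40 (SE 1.04), did not pass the adjusted test even though the groups did not overlap.

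For the remaining contrasts the induced genes gave few differences. In BM the list's median was 0.12, and Acod1, which makes itaconate, lay higher in all Δβ than in all WT libraries, at 1.49 (SE 1.17), uncalled and with no more than 14.0 normalized counts. In Δβ blasts the interferon-induced chemokine gene Cxcl10 lay higher and Tnf lower in SP than in BM, at 2.55 and -1.26, both uncalled. In the 11 libraries, 5 of the 16 genes were called lower in Δβ SP and 5 higher in SP than in BM of WT blasts, beside 11.7% and 4.23% of all tested genes.

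**Figure D5:**
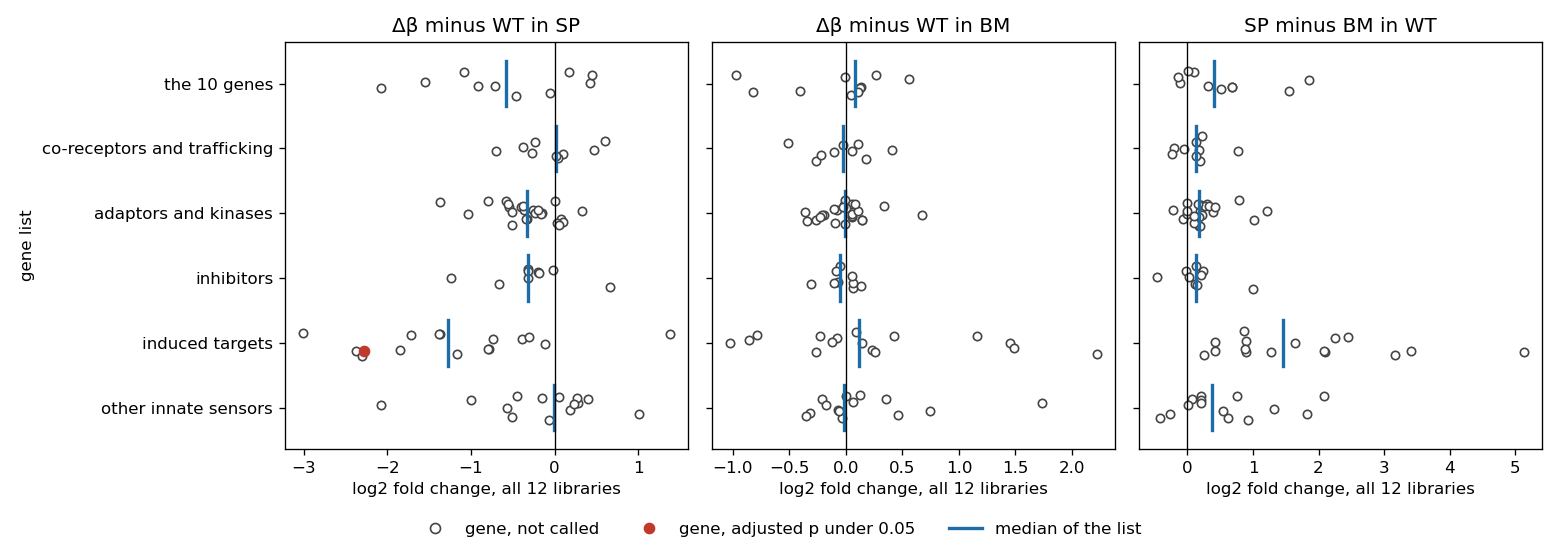
Log2 fold changes from limma with all 12 libraries for the 10 genes and for the tested genes of 5 lists, in 3 contrasts, with 1 point per gene (vertical scatter only separates points), red for an adjusted p under 0.05 and a blue line for the median; Tlr5 is not plotted, and the horizontal scales differ. The only red point is Tnf, and the median of the induced targets is -1.27 for Δβ minus WT in SP and 1.46 for SP minus BM in WT.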

How the data were processed

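Poly-A RNA of sorted Venus+ blasts was sequenced by the authors in 12 libraries, 3 from each genotype and organ. Per the labels, the submitters' processing notes name FastQC, STAR, featureCounts and DESeq2 and the builds GRCm38 and mm10, with no versions. The deposited signal is a table of 24454 genes holding read counts divided by DESeq2 size factors, and 6 further columns of values that match no sample were not used. Dividing each library by its smallest step gave whole reads for 100% of values within 0.01 read, and these recovered counts gave the depth, 9001051 to 13859727 reads on genes, and were used for edgeR and DESeq2. Replicate numbers came from the labels.

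The main test was limma 3.58.1 (R 4.3.3) with trended empirical Bayes moderation on log2(normalized count + 1), which understates the fold of low genes, on 11476 genes, those whose mean reached 10 normalized counts. All 4 group means were fitted together, p-values were adjusted over all tested genes by the Benjamini-Hochberg method, and genes with an adjusted p under 0.05 were called. The test used for these libraries by the study is not given in the sources used here. As alternatives, pseudocounts of 0.25 and 4, no filter or a minimum mean of 50, trimmed-mean (TMM) and quantile scaling, edgeR 4.0.16 (quasi-likelihood), DESeq2 1.42.0, a fit of only the groups compared, a replicate block and leaving out each library were run. The fits were tested on simulated data. Figures used Python 3.11.15, pandas 2.3.3, numpy 2.4.6 and matplotlib 3.10.9.

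Besides the 10 members, the text names a set of pathway genes, per contrast and list up to 2 genes with the largest change among those without overlap of the groups, any list gene past the threshold, and the 3 genes most correlated with each member, of which 1 is not reported here; genes called without WT SP replicate 3 and single markers were named after their values were seen. The 10 members, the lists of 87 further genes and the marker lists were chosen with earlier results of these data known. Gene models and exon lengths came from GENCODE M21 on GRCm38, where each member's exons were merged, and promoters from the RefSeq table for GRCm38.p6, which had entries for 7 of the 10 members (not for Tlr4, Tlr7 and Cd14).

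Replicate numbers paired the SP and BM libraries of Δβ blasts, whose deviations from the group means had an r of 0.61 to 0.66 for the same number and -0.49 to -0.18 for different numbers. This comes from the data, since the labels do not say what a number marks. In the other 5 pairs of groups same-numbered libraries had an r of -0.24 to 0.27.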

Additional observations from a re-analysis of the deposited data

How the results depend on the processing

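With all 12 libraries, 0 members were called by limma in each contrast, and this held under both other pseudocounts, both other filters, TMM and quantile scaling, edgeR, the fits of only the groups compared and the replicate block. DESeq2 called 2 members for Δβ against WT in SP. Leaving out 1 library at a time gave 0 to 5 members for Δβ against WT in SP and 0 to 3 for SP against BM in WT, in both cases above 0 only without WT SP replicate 3. Without WT SP replicate 1 instead, the log2 fold change in SP was -1.33 for Tlr7, -0.77 for Cd14 and 0.00 for Tlr13. With settings chosen after seeing the data, all without WT SP replicate 3, the members called for Δβ against WT in SP were 5 (edgeR), 6 (DESeq2) and 6 (limma, Δβ BM replicate 3 also left out), those for SP against BM in WT were 5 in each, and DESeq2 called 4 for the difference of the genotype effects. Of 775 log2 fold changes of members recomputed, 717 kept their side of the threshold and their value within the spread, 43 newly passed it, all under DESeq2 or without WT SP replicate 3, and 15 moved by more than the spread.

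Counts over all tested genes moved more, and the cause was not tested. For Δβ against WT in SP, where 12 genes were called, a pseudocount of 0.25 gave 1, no filter 5, a minimum mean of 50 gave 2, TMM 3, edgeR 4, DESeq2 457, only the 2 groups 2, and leaving out 1 library 1 to 1886, while a pseudocount of 4 gave 18 and quantile scaling 16. Without WT SP replicate 3, edgeR called 1835, DESeq2 2670, and limma without Δβ BM replicate 3 too 1993. For Δβ against WT in BM, where 8 were called, DESeq2 called 37, only the 2 groups 3 and leaving out 1 library 1 to 6. For SP against BM in WT, where 0 were called, DESeq2 called 111, leaving out 1 library gave 0 to 598, and without WT SP replicate 3 edgeR called 646, DESeq2 1477 and limma without Δβ BM replicate 3 too 803. For the difference of the genotype effects DESeq2 called 3 genes, and 452 without WT SP replicate 3, and for SP against BM in Δβ it called 2.

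With the replicate number as a block, 0 members were called in each contrast, the genes called for Δβ against WT were 2 in SP and 5 in BM, and Tnf in SP had an adjusted p of 0.0757 from limma. In the 6 Δβ libraries alone, whose numbers pair SP and BM, the block gave 0 members and 0 genes, a setting chosen after seeing the data.

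With 3 libraries in a group and a spread shared by all groups, the standard errors of Tlr7 and Cd14 in SP were 0.81 and 0.76. This limits what limma can call with all 12 libraries. When WT SP replicate 3 was left out, they were 0.71 and 0.60. Without that library the spread of WT SP rests on 2 libraries.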

Other observations

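Innate sensors outside the Toll-like receptor family were measured in the same libraries. Of 14 genes, all tested, 7 were higher and 7 lower in Δβ than in WT SP. Their median log2 fold change was -0.01, and limma called 0. Clec4e, a C-type lectin that binds mycobacterial glycolipid, had 1803, 1252 and 405 normalized counts in WT SP and 208, 254 and 231 in Δβ SP, or -2.07 as log2 fold change (SE 0.61, adjusted p = 0.222 from limma). Its WT SP replicates 1 and 2 were the higher ones, as for the 6 members described above, but the groups did not overlap. Mb21d1, which encodes the DNA sensor cGAS, had 546, 709 and 811 in WT SP and 858, 998 and 834 in Δβ SP, or 0.39 as log2 fold change (SE 0.16, adjusted p = 0.295 from limma), also without overlap. Without WT SP replicate 3, 11 of the 14 were lower and 3 higher in Δβ SP, with a median of -0.42, and 2 were called lower and 1, Mb21d1, higher. The same fit called 16.4% of all tested genes, 11.7% as lower in Δβ SP. In WT blasts 12 of the 14 were higher in SP than in BM, with a median of 0.38 and 0 called by limma. The largest without overlap were Clec4e at 2.08 and Zbp1, a sensor of Z-form nucleic acid, at 1.83.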
